A study of Mus musculus with 22 samples.

Results

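The genes described here are the 48 cytosolic ribosomal protein genes that the arrays measured with a probe of their own, out of 12393 genes in all. A gene was taken when a probe carried only its symbol and that symbol was Rpl or Rps followed by a number, or Rplp0, Rplp1, Rplp2 or Rpsa. Kinases of the Rps6k family and pseudogenes were left out, and each gene was read from its brightest probe, judged by the mean of the 22 samples. The set held 22 genes of the small subunit, 24 of the large subunit and 2 of the P stalk (Rplp0 and Rplp2), and 6 of the 48 were paralogs (Rpl3l, Rpl7l1, Rpl22l1, Rpl39l, Rps4l and Rps27l). A further 30 ribosomal protein symbols, Rpl3, Rpl5, Rpl10 and Rplp1 among them, occurred only on probes shared with other symbols and are outside the 48.

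Loose connective tissue from under the skin of the trunk was taken from male C57BL/6 mice of 19 to 24 g, and its RNA was hybridised to arrays as biotin-labelled cRNA. Each animal gave a piece held stretched and a piece held shortened, allotted at random, with 7 animals for tissue held in vivo and 4 for tissue held ex vivo. How hard and how long the tissue was stretched, and how old the mice were, is not stated in the labels. No group was left unmanipulated, so each stretch value is a difference from shortened tissue. All samples were whole tissue, in which fewer cells of a type and less RNA per cell cannot be told apart.

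Ribosomal proteins coat the ribosomal RNAs of the small subunit, which reads the mRNA, and of the large subunit, which joins the amino acids, while the P stalk recruits the elongation factors. Their mRNAs are among the most abundant of most cells. Many begin with a run of C and T at the 5′ end, the terminal oligopyrimidine or TOP motif, through which the mTORC1 pathway controls their translation. Several paralogs replace a constitutive protein in particular tissues, as Rpl3l does for Rpl3 in striated muscle.

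The start of the members is shown because the TOP run is the sequence feature that marks this gene class. RefSeq promoters (GRCm38.p6) were found for 42 of the 48 genes, and a window of 30 bases was read, with the annotated start as its base 16. A run of at least 8 C or T lay in the window of 19 of the 42 (45.2%), against 13.9% of 27025 genes. Where a gene had several annotated starts, the one with the longest run was read, in members and in all genes. The longest run of the window is in capitals below, for 10 constitutive members named in the results, 5 with a run of at least 8 and 5 without, and then for 4 paralogs.
Rps6 (chr4:86857353-86857382, minus strand): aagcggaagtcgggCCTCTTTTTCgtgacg
Rps10 (chr17:27635230-27635259, minus strand): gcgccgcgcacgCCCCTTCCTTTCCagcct
Rps18 (chr17:33955651-33955680, minus strand): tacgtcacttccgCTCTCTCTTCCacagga
Rps27 (chr3:90213634-90213663, minus strand): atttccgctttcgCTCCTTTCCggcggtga
Rpl12 (chr2:32961697-32961726, plus strand): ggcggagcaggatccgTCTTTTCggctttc
Rpl14 (chr9:120571502-120571531, plus strand): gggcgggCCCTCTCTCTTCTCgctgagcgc
Rpl11 (chr4:136053379-136053408, minus strand): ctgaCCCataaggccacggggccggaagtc
Rpl41 (chr10:128549154-128549183, minus strand): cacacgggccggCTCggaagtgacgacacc
Rplp0 (chr5:115559452-115559481, plus strand): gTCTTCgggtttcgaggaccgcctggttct
Rps28 (chr17:33824548-33824577, minus strand): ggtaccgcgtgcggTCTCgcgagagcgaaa
Rpl22l1 (chr3:28805493-28805522, plus strand): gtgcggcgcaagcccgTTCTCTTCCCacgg
Rps27l (chr9:66946071-66946100, plus strand): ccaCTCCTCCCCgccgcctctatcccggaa
Rpl39l (chr16:10170213-10170242, plus strand): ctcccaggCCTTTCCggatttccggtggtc
Rpl3l (chr17:24727811-24727840, plus strand): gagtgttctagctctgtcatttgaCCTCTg
Among the constitutive members 17 of 37 windows held such a run. Of the 5 paralogs with a window, Rpl22l1 and Rps27l held one, while the longest runs of Rpl39l and Rpl3l were 7 and 5 bases long. The letters CTTTCC lay in the windows of 6 of 42 members (14.3%) and of 1.67% of all genes. CCGGAAGT, searched on both strands of the 300 bases around the start, lay in 10 of 42 members (23.8%) and in 4.31% of all genes. TATAAA lay in 6 of 42 (14.3%) and in 15.7% of all genes. A match describes the letters of a window only. The 48 genes lie on 17 chromosomes, 7 of them on chromosome 17, where Rps2 (24718121 to 24721927, GRCm38.p6) and Rpl3l (24727826 to 24736143) lie close together.

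Signals are log2 values, whose size also depends on the probe, so levels are compared between samples of 1 probe and not between genes. Most probes of the members were bright, and 33 of the 48 had a mean signal of at least 12 over all samples. The brightest probes were those for Rps29 (13.9), Rpl41 and Rpl37a and the dimmest those for Rpl3l (5.99), Rpl14 (6.98) and Rpl39 (7.14), an order of probes and not of mRNA levels. Probes of 8 constitutive genes, Rpl12, Rpl14, Rpl27a, Rpl37, Rpl39, Rps6, Rps25 and Rps27, were under 10. Members varied little between animals. The median standard deviation (SD) of a member was 0.068 in in vivo shortened tissue (n = 7), where it was 0.180 for all genes and 0.150 for the 2712 probes of other genes with a mean of at least 10. The corresponding values were 0.093, 0.185 and 0.170 in in vivo stretched tissue (n = 7). Ex vivo they were 0.058, 0.140 and 0.119 in shortened and 0.085, 0.168 and 0.152 in stretched tissue (n = 4 each). Only 311 of those 2712 probes had a mean of at least 12, so the SDs are set against probes that were mostly dimmer. The part of brightness in the smaller SDs was not tested.

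Genes named for their roles show the size of that spread. Rps29, a small subunit protein, had signals of 14.03, 14.06 and 14.07 (lowest, median and highest) in in vivo shortened tissue and of 13.93, 14.00 and 14.07 in stretched tissue. Rplp0, the scaffold of the P stalk, had 13.18, 13.23 and 13.28 in shortened and 13.10, 13.20 and 13.31 in stretched tissue. The shortened range of Rplp0 lay within its stretched range, whereas most stretched pieces of Rps29 lay below its lowest shortened piece. Rps6, the small subunit protein phosphorylated downstream of mTORC1, ranged wider on its dimmer probe, from 9.23 to 9.83 in shortened and from 9.21 to 9.80 in stretched tissue. Rpl11, which binds Mdm2 when ribosome assembly is disturbed, lay between 12.77 and 12.86 in shortened and between 12.63 and 12.81 in stretched tissue. Rps19, a gene mutated in Diamond-Blackfan anaemia, lay between 12.60 and 12.82 in shortened and between 12.46 and 12.76 in stretched tissue. Rpl38, whose loss changes Hox mRNA translation in mouse embryos, lay between 13.23 and 13.40 and between 13.16 and 13.40. These ranges overlapped too.

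**Figure D1:**
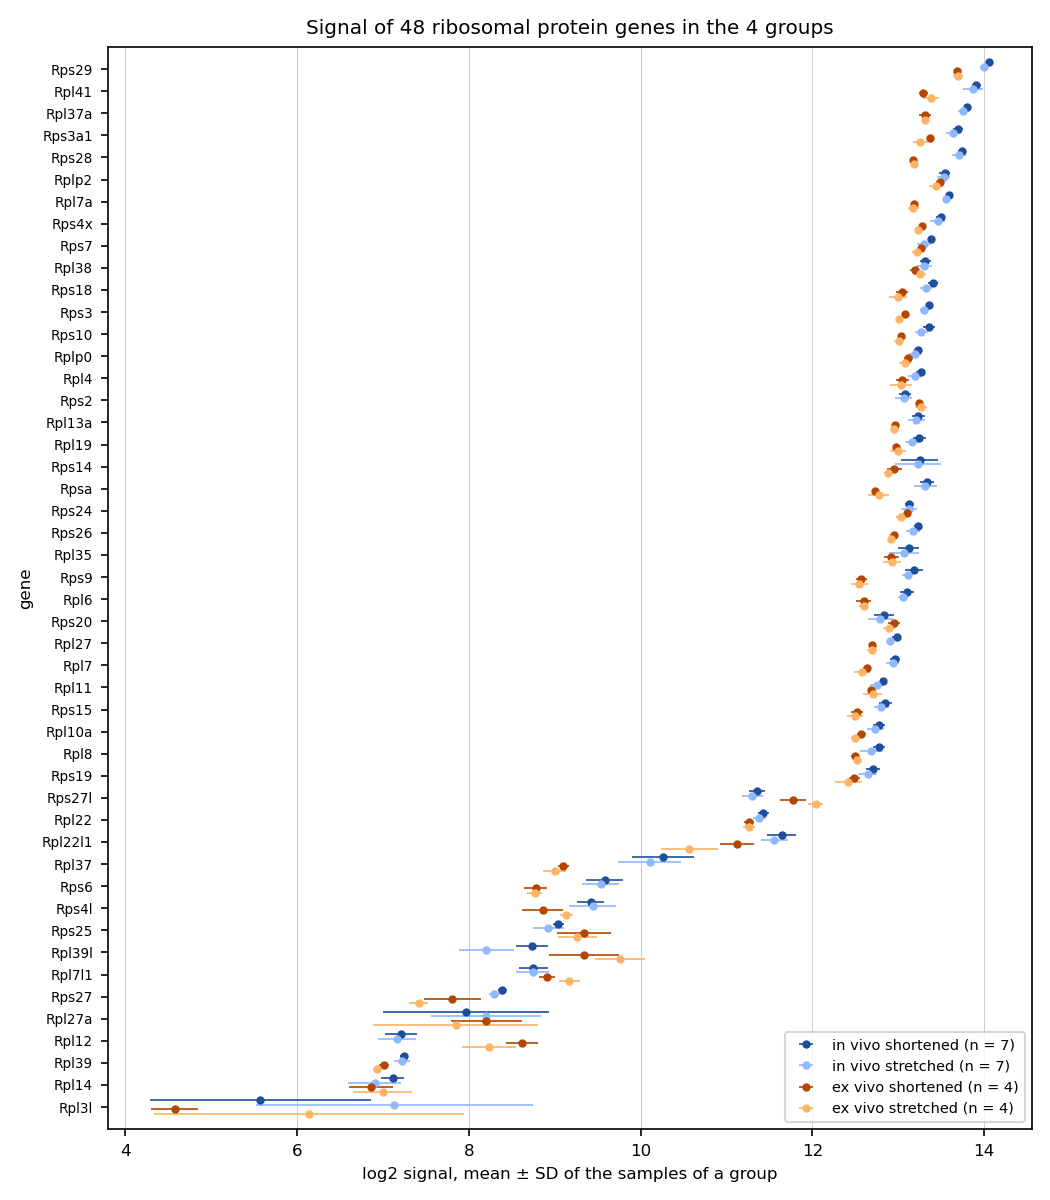
Log2 signal (horizontal axis) of the 48 ribosomal protein genes (rows, ordered by mean) as mean and SD of the samples of each group, with n = 7 in vivo and n = 4 ex vivo. Most genes lie above 12 with short bars, and Rpl3l at the bottom has long bars in stretched tissue, with an SD of 1.61 in vivo and 1.81 ex vivo.

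In living animals the question was how the members differed between stretched and shortened tissue of the same animal. Signals were slightly lower in stretched tissue for 45 of the 48 genes and higher for 3 (Rpl3l, Rpl27a and Rps4l), with a median difference of -0.05 on the log2 scale. No single member passed the test: 0 of 48 had a limma adjusted p under 0.05, the same 0% as among all 22626 probes, and the smallest was 0.172. At an unadjusted p under 0.05 stood 1 member higher and 6 lower, against 7.95% of all probes higher and 11.4% lower. The median over all 12393 genes was -0.01, and 44.8% of genes were higher.

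By structure, all 20 constitutive small subunit genes were lower, with a median of -0.05. Of the 20 constitutive large subunit genes 19 were lower, with the same rounded median of -0.05, and both stalk genes were lower, with a median of -0.02. Among the 34 constitutive genes with a mean of at least 10, 34 were lower. Bright probes of other genes leaned the same way: 64.1% of the 2712 with a mean of at least 10 were lower, with a median of -0.04, and 63.0% of the 311 with a mean of at least 12. The median of the members moved from -0.05 to -0.03 when each sample was centred on those bright probes, where 42 of 48 were lower. Of the 102 probes that ribosomal protein symbols share with other symbols, 95 were lower, with a median of -0.06. Of the 23 members with several probes, all probes had the same sign in 18.

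The lean differed between animals. Median pair differences of the members in animals 1 to 7 were -0.01, -0.05, -0.12, -0.03, -0.08, 0.002 and -0.04. Animals 1 and 6 were near 0, with 22 and 25 of 48 members higher, and animal 3 was lowest, with 5 of 48 higher. The medians of the bright probes of other genes in the same pairs were -0.01, -0.02, -0.08, -0.01, -0.07, 0.001 and -0.06. They were most negative in animals 3, 5 and 7. Cell type markers differed between the pieces as well, with 0 genes past the threshold. All 14 measured fibroblast markers and all 12 macrophage markers were lower in stretched tissue, with medians of -0.10 and -0.14, and all 10 adipocyte markers were higher, with a median of 0.43. All 5 Schwann cell markers were lower (median -0.35). Endothelial markers were higher for 9 of 10 (0.35), keratinocyte markers for 7 of 9 (0.19), lymphocyte markers for 8 of 10 (0.05) and neutrophil markers for 5 of 9 (0.03). Their part in the members' values was not tested. Fibroblast markers were present throughout, with mean signals from 12.2 to 12.7 in vivo and from 10.7 to 11.2 ex vivo.

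**Figure D2:**
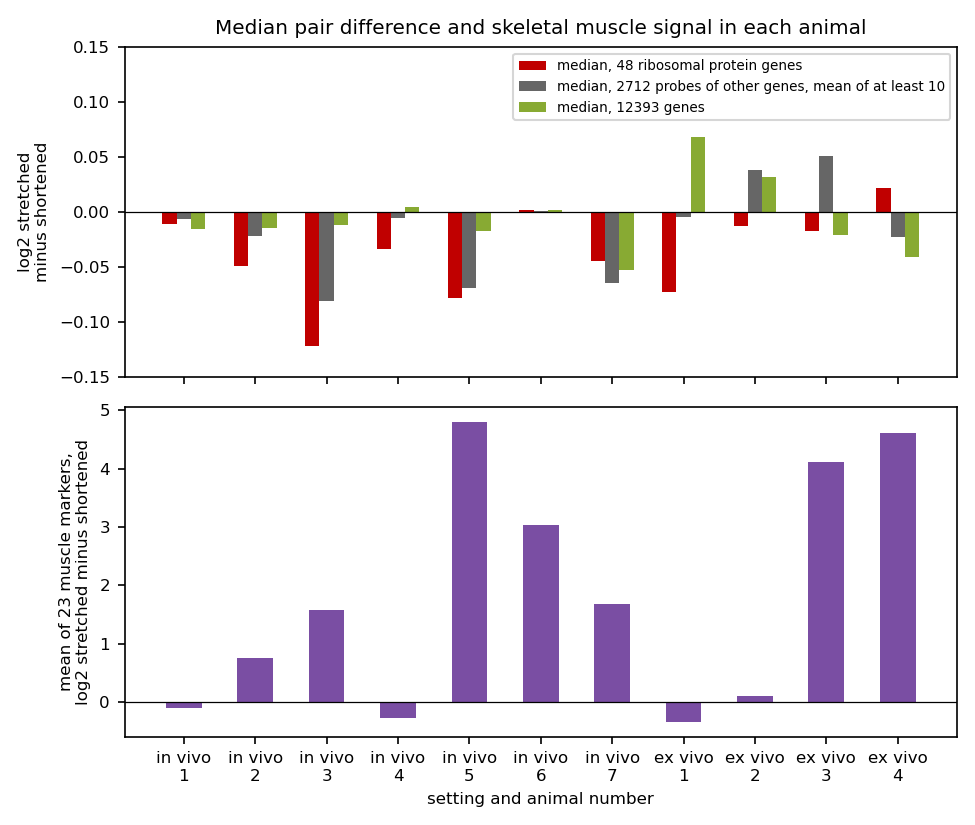
Upper panel: median log2 difference of stretched minus shortened tissue in each animal (bars) for the 48 ribosomal protein genes, for 2712 bright probes of other genes and for all 12393 genes. Lower panel: the same difference for the mean of 23 skeletal muscle markers, which is 4.80 in in vivo animal 5 and 4.61 in ex vivo animal 4, while the members' medians there are -0.08 and 0.02.

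Among the constitutive small subunit genes the smallest p belonged to Rps10, a protein of the head of the subunit. Its signals were 13.26, 13.34 and 13.44 (lowest, median and highest) in shortened and 13.18, 13.26 and 13.39 in stretched tissue. The groups overlapped, but the stretched piece was lower in 7 of 7 animals, with pair differences of -0.16 to -0.02. The difference was -0.09 ± 0.03 (standard error of the fit, SE; n = 7 animals), with an adjusted p of 0.175. Rps18, which contacts the tRNA region of the head, was lower in every pair too and differed by -0.08 ± 0.03 (adjusted p = 0.222). Rps27, a zinc-finger protein of the small subunit, was lower in every pair and differed by -0.09 ± 0.04 (adjusted p = 0.271). In all, 6 members were lower in every pair (Rpl4, Rpl6, Rpl39l, Rps10, Rps18 and Rps27), which 3.68% of all probes were, and 1 was higher in every pair (Rpl3l), which 1.34% were.

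Among the constitutive large subunit genes, Rpl14 had signals of 6.89, 7.15 and 7.25 in shortened and 6.32, 7.03 and 7.24 in stretched tissue. The ranges overlapped, and animals 3 and 7 had the lowest stretched pieces. Its difference was -0.21 ± 0.07 (adjusted p = 0.190), on 1 of the dimmest probes of the set. Rpl27 differed by -0.08 ± 0.03 (adjusted p = 0.211). Rpl27a was the exception in the other direction, at 0.23 ± 0.15 (adjusted p = 0.408), higher in 5 of 7 animals, and within animals 4 to 7 its difference was -0.09. The level of Rpl27a also differed with a sign of RNA quality, whose part was not tested. In animals 1 to 3, where the 3′ minus 5′ difference of the Gapdh control probes was 0.11 to 0.27, its mean signal was 7.39, and in animals 4 to 7, where the difference was 0.87 to 3.61, it was 8.60. The pieces of an animal differed in this Gapdh value too. Stretched minus shortened it was 0.01, 0.06, 0.11, 0.78, -0.91, 0.49 and -2.10 in animals 1 to 7. Over the whole set 2 members (Rpl38 and Rplp2) had all samples of animals 4 to 7 above all samples of animals 1 to 3, against 5.74% of probes, and 0 had all below, against 9.03%.

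**Figure D3:**
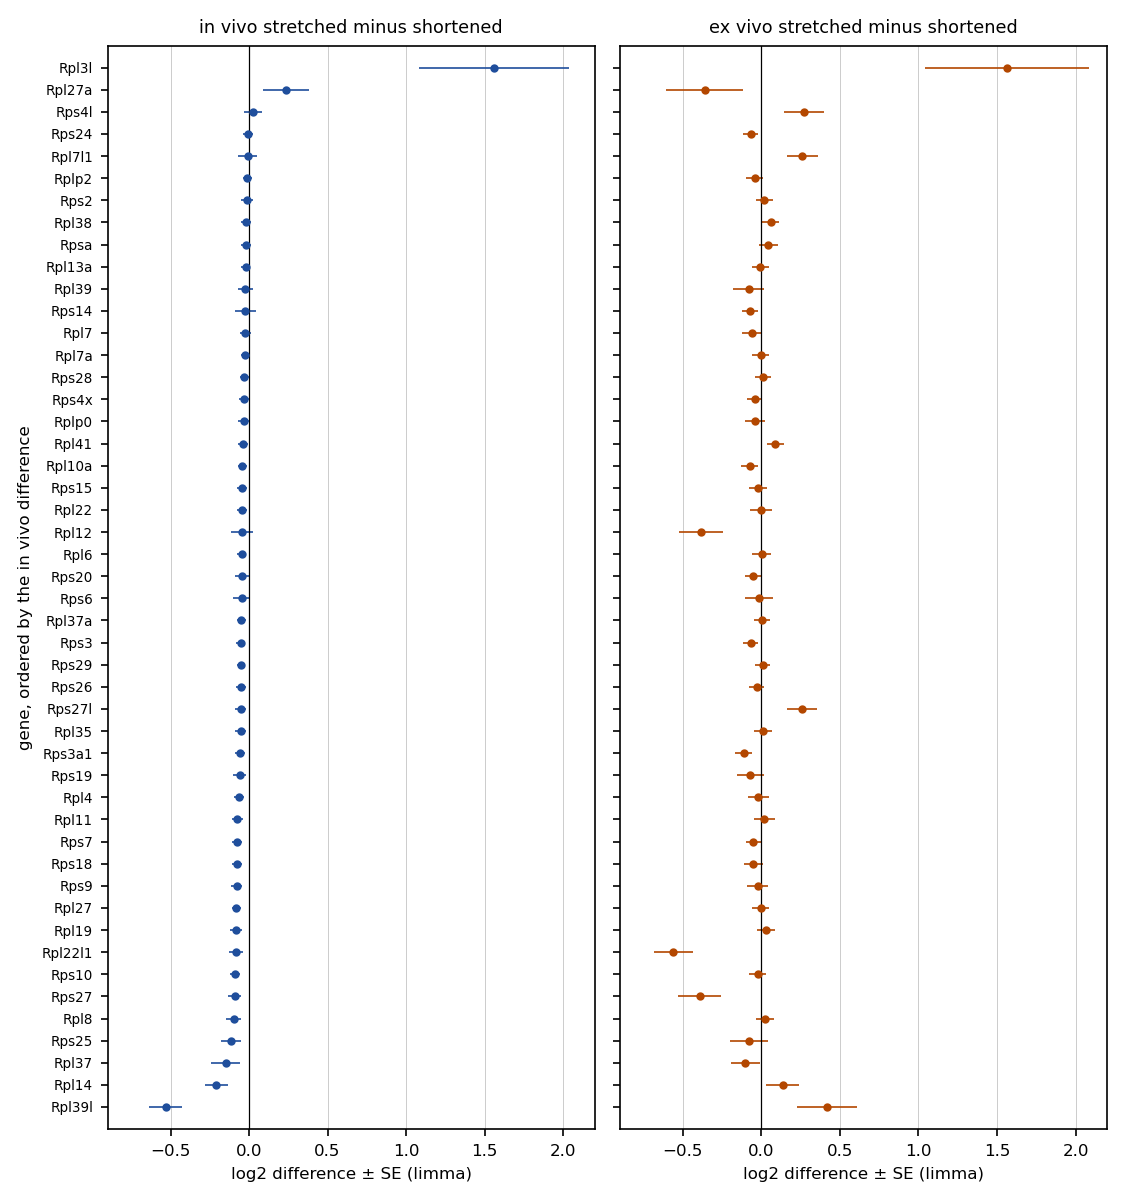
Log2 difference of stretched minus shortened tissue with its SE from limma (horizontal axis) for the 48 genes (rows, ordered by the in vivo value), in vivo on the left (n = 7 animals) and ex vivo on the right (n = 4). In vivo 45 points lie left of 0 within a narrow band, and Rpl3l (1.56) and Rpl39l (-0.53) lie at the ends.

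Rpl39l, a copy of the exit tunnel protein Rpl39 known mainly from testis, had the smallest p of all members in vivo. Its signals were 8.57, 8.72 and 9.03 in shortened and 7.63, 8.27 and 8.51 in stretched tissue, so every stretched piece was below every shortened piece. The stretched piece was lower in 7 of 7 animals, with pair differences from -0.07 in animal 6 to -1.09 in animal 3. The difference was -0.53 ± 0.10 with an unadjusted p of 0.000415 and an adjusted p of 0.172. With muscle content as a covariate it was -0.52, and without the pairs that differed most in muscle markers (animals 5 and 6) -0.61. Rpl39 itself lay between 7.18 and 7.29 in shortened and between 7.12 and 7.40 in stretched tissue.

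Rpl3l, the striated muscle form of Rpl3, had the largest difference of the set in both settings, 1.56 ± 0.48 in vivo (adjusted p = 0.172) and 1.57 ± 0.52 ex vivo (adjusted p = 0.394). Its in vivo signals were 5.38, 4.70, 6.73, 7.80, 4.30, 4.46 and 5.64 in the shortened and 5.46, 5.14, 8.94, 8.05, 9.02, 6.04 and 7.27 in the stretched pieces of animals 1 to 7. Every stretched piece was above the shortened piece of its animal, by 0.08 in animal 1 and by 4.72 in animal 5, while the groups overlapped. Ex vivo its signals were 4.31, 4.38, 4.68 and 4.91 in the shortened and 4.51, 4.81, 6.88 and 8.34 in the stretched pieces of animals 1 to 4. Animals 3 and 4 were the high ones.

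The mean of 23 skeletal muscle markers, of 25 listed, moved with Rpl3l. Its pair differences were -0.11, 0.75, 1.58, -0.27, 4.80, 3.03 and 1.68 in vivo and -0.34, 0.10, 4.11 and 4.61 ex vivo. The animals with the largest muscle differences in each setting, in vivo 5 and ex vivo 4, were also those with the largest Rpl3l differences. The mean ranged from 5.40 to 11.002 in in vivo shortened, from 5.29 to 11.3 in in vivo stretched, from 5.25 to 5.95 in ex vivo shortened and from 5.15 to 10.6 in ex vivo stretched tissue. Of the 23 markers 20 were higher in stretched tissue in vivo and 22 ex vivo, with 0 past the threshold in either. With muscle content as a covariate the Rpl3l difference was 0.20 in vivo and 0.36 ex vivo. Without the pairs that differed most in muscle markers it was 0.92 and 0.32. In vivo this step kept animal 4, whose pieces were both rich in muscle, with marker means of 11.002 shortened and 10.7 stretched. Leaving out only in vivo animal 5 gave an Rpl3l difference of 1.03, and leaving out only ex vivo animal 4 gave 0.94.

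The remaining paralogs had small differences in vivo, none past the threshold. Rpl22l1 differed by -0.09 ± 0.04 (adjusted p = 0.320), Rps27l by -0.05 ± 0.04 (adjusted p = 0.451), Rps4l by 0.02 ± 0.06 (adjusted p = 0.864) and Rpl7l1 by -0.01 ± 0.06 (adjusted p = 0.958). The sign of Rpl7l1 turned when samples were centred on bright probes, and those of Rps4l and Rpl7l1 turned with muscle content as a covariate.

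**Figure D4:**
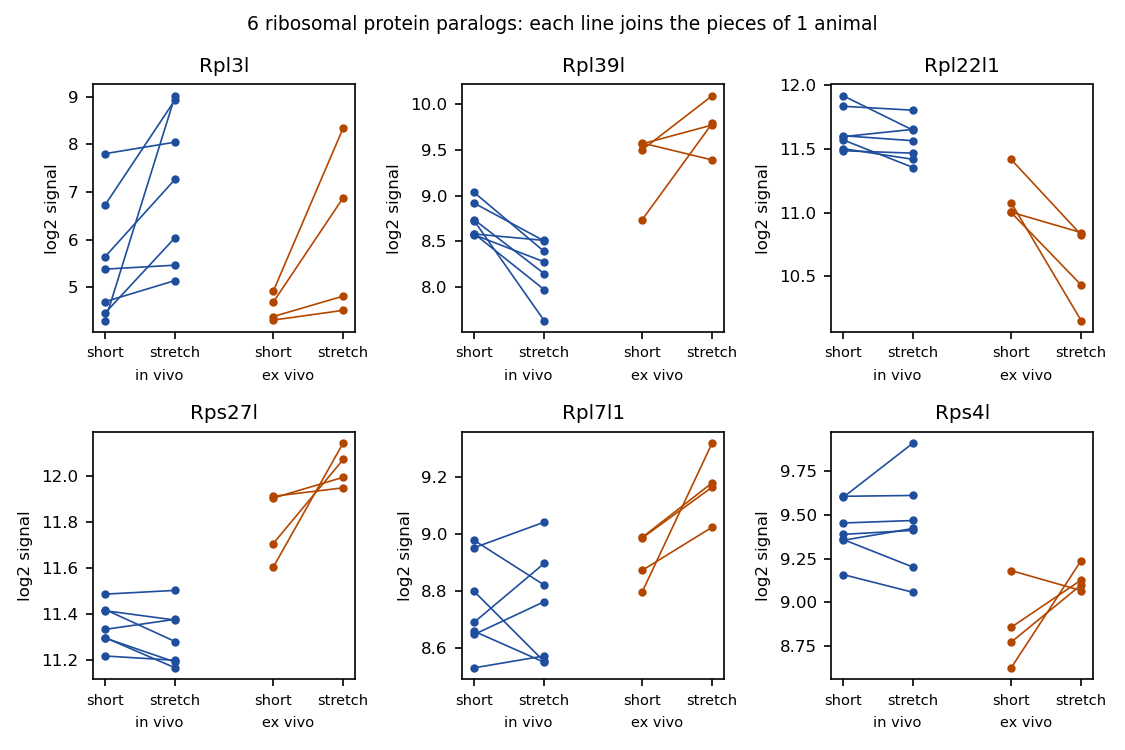
Log2 signal (vertical axis, a range of its own for each gene) of the 6 paralogs in shortened and stretched tissue, in vivo in blue and ex vivo in orange, with a line for each animal. All 7 in vivo lines of Rpl39l slope down and 3 of its 4 ex vivo lines slope up, the 4 ex vivo lines of Rpl22l1 slope down, and those of Rps27l and Rpl7l1 slope up.

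The ex vivo comparison repeated the question in tissue held outside the body. Here 30 of 48 members were lower and 18 higher in stretched tissue, with a median difference of -0.02 against 0.01 for all genes. Again 0 of 48 passed (limma adjusted p under 0.05; 0% of the 22626 probes), and the smallest adjusted p was 0.352. At an unadjusted p under 0.05 stood 3 members higher and 3 lower, against 5.23% and 5.85% of all probes. The medians of the members in animals 1 to 4 were -0.07, -0.01, -0.02 and 0.02, so only animal 4 was above 0. Leaving out animal 1 put the median at -0.0001, with 24 members higher and 24 lower, and quantile normalization put it at -0.002, again with 24 on each side. Leaving out animal 4 put it at -0.04, with 14 higher and 34 lower, and centring on the median of all probes at -0.04, with 13 higher and 35 lower. In animal 1 the 3′ minus 5′ difference of Gapdh was 0.139 in the shortened and 0.912 in the stretched piece. The other ex vivo samples had values from 0.0497 to 0.187, and the part of RNA quality was not tested.

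Constitutive small subunit genes were lower for 16 of 20 ex vivo, with a median of -0.05, and large subunit genes for 11 of 20, with a median of -0.004. All probes had the same sign in 13 of the 23 members with several probes. Of the 2712 bright probes of other genes 46.5% were lower, with a median of 0.02. Lower in every pair were 10 members (Rpl10a, Rpl22l1, Rps3, Rps3a1, Rps4x, Rps7, Rps14, Rps24, Rps26 and Rps27), against 9.32% of all probes, and higher in every pair were 3 (Rpl3l, Rpl7l1 and Rps27l), against 10.8%. Rps27 had signals of 7.60, 7.68, 8.30 and 7.65 in shortened and 7.34, 7.31, 7.48 and 7.53 in stretched tissue of animals 1 to 4. The stretched pieces were all below the shortened ones, and the difference was -0.39 ± 0.14 (adjusted p = 0.401). Rpl12, a large subunit protein at the base of the stalk, differed by -0.38 ± 0.14 (adjusted p = 0.413), lower in 3 of 4 animals. Rps3a1 differed by -0.11 ± 0.05 (adjusted p = 0.493) and Rpl27a by -0.36 ± 0.25 (adjusted p = 0.630). Without animal 3 the differences of Rps27 and Rpl27a were -0.25 and -0.07, and without animal 2 that of Rpl12 was -0.26.

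Of the 6 paralogs 5 were higher in ex vivo stretched tissue, and 1 was lower. The lower one was Rpl22l1, the copy of Rpl22, with signals of 11.0002, 11.0771, 11.4149 and 11.0025 in shortened and 10.43, 10.15, 10.83 and 10.84 in stretched tissue. Every stretched piece was below every shortened one, and pair differences ran from -0.16 in animal 4 to -0.92 in animal 2. The difference was -0.56 ± 0.12, with an unadjusted p of 0.00299 and an adjusted p of 0.352, the smallest of the set. Rpl22 itself lay between 11.18 and 11.30 in shortened and between 11.16 and 11.31 in stretched tissue.

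Rps27l, a copy of Rps27 and a known p53 target, had signals of 11.90, 11.71, 11.60 and 11.91 in shortened and 11.99, 12.07, 12.14 and 11.95 in stretched tissue. Every stretched piece was above every shortened one. The difference was 0.26 ± 0.10 (adjusted p = 0.420), and the gene's other probes gave 0.27 and 0.31. Rps27 and Rps27l thus differed with opposite signs ex vivo, in all 4 animals each. Rpl7l1, a relative of Rpl7, was higher in 4 of 4 animals at 0.26 ± 0.10 (adjusted p = 0.419), while its other probe was higher in 2 of 4 at 0.07. Rps4l was higher in 3 of 4 at 0.27 ± 0.13 (adjusted p = 0.485). With muscle content as a covariate it was 0.12, and without the pairs that differed most in muscle (animals 3 and 4) 0.11. Rpl7l1 was 0.17 without those pairs. Without animal 3 the differences were 0.16 for Rps27l, 0.17 for Rpl7l1 and 0.16 for Rps4l.

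Rpl39l had ex vivo signals of 9.57, 8.73, 9.50 and 9.57 in shortened and 9.39, 9.79, 10.09 and 9.77 in stretched tissue. It was higher in 3 of 4 stretched pieces, and the shortened piece of animal 2 stood apart from the other shortened ones. The difference was 0.42 ± 0.19 (adjusted p = 0.485), and without animal 2 it was 0.20.

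Whether the stretch effect itself differed between the settings was tested in 1 fit of all 22 samples, which share their values with both comparisons above. Of the 48 members 0 passed (limma), where 0.177% of the 22626 probes did (0.0486% higher and 0.128% lower), and 5 higher and 3 lower had an unadjusted p under 0.05, against 8.56% and 6.74%. The probes called over the whole array numbered 40, and between 0 and 663 when an animal was left out. Rpl39l had the largest difference of effects, 0.95 ± 0.22 (adjusted p = 0.0857), and Rpl22l1 differed by -0.47 ± 0.12 (adjusted p = 0.0968). Without ex vivo animal 1 Rpl39l gave 1.15 with an adjusted p of 0.0187, and without ex vivo animal 4 Rpl22l1 gave -0.61 with an adjusted p of 0.0185, so each call depended on which animal was left out. Next came Rps27l at 0.31 ± 0.09 (adjusted p = 0.136), Rpl14 at 0.34 ± 0.12 (adjusted p = 0.207), Rps27 at -0.30 ± 0.12 (adjusted p = 0.246) and Rpl7l1 at 0.27 ± 0.11 (adjusted p = 0.265). For Rpl3l the difference was 0.01 ± 0.83 (adjusted p = 0.998), a value too wide to give a direction.

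Shortened tissue was also compared between the settings, using the same shortened samples. The arrays of the settings followed different distributions, with medians of 7.28 to 7.41 in vivo and 6.85 to 6.90 ex vivo, so setting, array run and normalization cannot be told apart. Differences are therefore given relative to the median difference of all probes, which was -0.38. On that scale 30 of 48 members passed, 23 higher and 7 lower in ex vivo tissue, against 67.3% of all probes (33.5% higher, 33.9% lower). The median of the members was 0.11, and that of all genes -0.09. The split depended on the scaling. With quantile normalization of all samples 15 were higher and 11 lower, with a median of -0.002, and with values as deposited 5 were higher and 36 lower, with a median of -0.28. Of the 22626 probes 15209 passed in either direction with quantile normalization and 16550 as deposited, where the median of all probes was -0.38. Cell type markers differed in the same comparison. On the relative scale 11 of 12 macrophage markers passed as lower in ex vivo tissue (median -2.74), 12 of 14 fibroblast markers as lower and 1 as higher (-1.22), 7 of 10 adipocyte markers as lower (-1.76), and 4 of 23 muscle markers as lower and 1 as higher (-1.57). Lymphocyte markers had a median of -0.76, with 8 of 10 passing as lower and 1 as higher. Endothelial and neutrophil markers had positive medians of 0.54 and 0.40. Of the endothelial markers 4 of 10 passed as higher and 2 as lower, and of the neutrophil markers 5 of 9 as higher and 2 as lower. Keratinocyte and Schwann cell medians were -0.02 and -0.18. The 3′ minus 5′ difference of Gapdh was 0.0497 to 0.171 in ex vivo and 0.111 to 2.96 in in vivo shortened tissue. The part of these in the values of the members and of the lists was not tested.

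Members that passed in the same direction under those 3 scalings were 5 higher (Rps2, Rps25, Rpl12, Rpl39l and Rps27l) and 7 lower (Rpsa, Rps6, Rps9, Rps28, Rpl37, Rpl37a and Rpl41). The share of all probes that did so was not computed, so these counts do not set the members apart from other genes. Rpl12 was 7.21 ± 0.18 (SD, n = 7) in in vivo and 8.62 ± 0.18 (SD, n = 4) in ex vivo shortened tissue before the shift was taken out, ranges of 6.85 to 7.39 and 8.49 to 8.89 that did not overlap. Its relative difference was 1.79 ± 0.12 (SE, adjusted p = 5.42e-08), the largest of the set. Rps2, a protein of the mRNA entry side, was 0.55 ± 0.04 higher (adjusted p = 2.35e-07) on a bright probe. Among the paralogs Rpl39l was 0.99 ± 0.16 higher (adjusted p = 0.000135) and Rps27l 0.81 ± 0.07 higher (adjusted p = 9.31e-07). Rpl7l1 was 0.54 ± 0.10 higher (adjusted p = 0.000331), a call lost on the deposited scale, where it differed by 0.16 (adjusted p = 0.158). Differences of Rpl22l1, Rps4l and Rpl3l were -0.13, -0.17 and -0.62, with adjusted p of 0.266, 0.194 and 0.359. On the deposited scale they were -0.52, -0.56 and -1.001, with limma adjusted p of 0.000608, 0.000755 and 0.135, so Rpl22l1 and Rps4l passed there. In stretched tissue, on the relative scale, Rpl22l1 passed at -0.61 (limma adjusted p = 0.00157) and Rps4l did not, at 0.08 (limma adjusted p = 0.649).

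Lower in ex vivo tissue was Rpl37, at 10.26 ± 0.36 in vivo and 9.10 ± 0.06 ex vivo, with a relative difference of -0.77 ± 0.17 (adjusted p = 0.0013). Rpl41, the shortest ribosomal protein, was -0.23 ± 0.04 (adjusted p = 0.000222), Rpsa, also known as the laminin receptor, -0.23 ± 0.05 (adjusted p = 0.00104), Rps9 -0.23 ± 0.06 (adjusted p = 0.00375) and Rps28 -0.18 ± 0.04 (adjusted p = 0.000621). When stretched tissue was compared instead, Rpl41 was -0.105 (limma adjusted p = 0.196) and Rpsa -0.164 (limma adjusted p = 0.0820), so both calls were lost. Averaging all probes of a gene turned Rpl41 to 1.08, Rpsa to 0.09 and Rps28 to 0.04, left Rps9 at -0.002 and put Rps24 at 1.17. The dimmest probes of Rpl41, Rpsa and Rps9 had mean signals of 5.29, 3.11 and 6.56. Those of Rps28 were all bright, at 13.5, 13.3 and 13.2, so its sign turned among bright probes of the same gene. Rps24 and Rps7, at 0.35 and 0.27 above the array median, were -0.03 and -0.11 on the deposited scale. Both stalk genes passed as higher, with a median of 0.30, and were lower on the deposited scale, at -0.11 for Rplp0 and -0.06 for Rplp2.

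**Figure D5:**
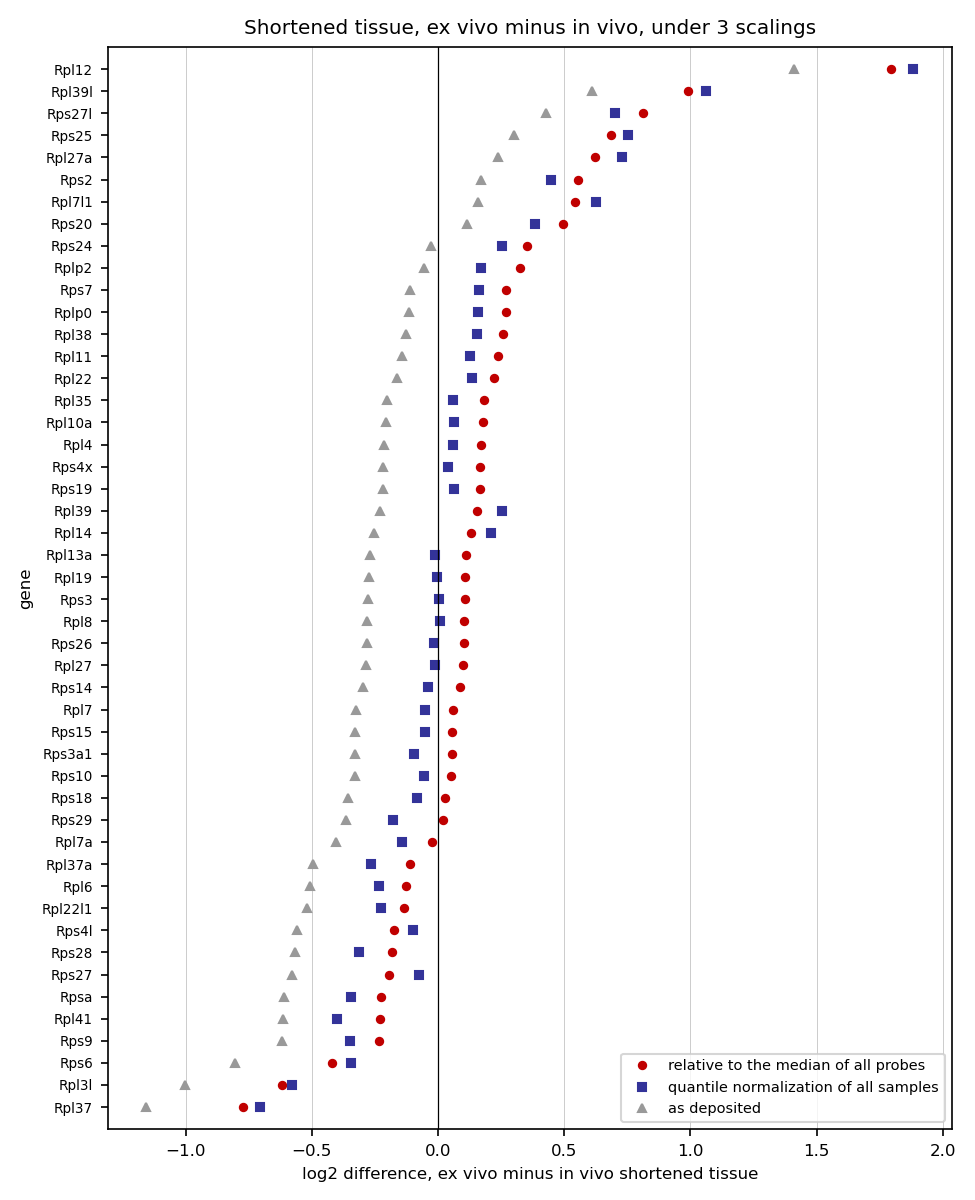
Log2 difference of ex vivo minus in vivo shortened tissue (horizontal axis) for the 48 genes (rows) under 3 scalings, as circles, squares and triangles, with n = 4 against 7 animals. Rpl12 is above 1.4 under each scaling and Rpl37 below -0.7, while most genes cross 0 between scalings.

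Genes that work with ribosomal proteins were followed in 4 lists, and 0 of their genes passed in either stretch comparison (limma; 0% of probes). Among mitochondrial ribosomal proteins, which build the separate ribosome of mitochondria, 68 of 74 were higher in stretched tissue in vivo and 69 of 74 ex vivo, with medians of 0.09 and 0.18. Of all 12393 genes 44.8% were higher in vivo and 52.4% ex vivo, with medians of -0.01 and 0.01. Under quantile normalization and both centrings 67 to 70 of the 74 were higher in either setting. Skeletal muscle markers had medians of 1.94 in vivo and 2.35 ex vivo in the same comparisons. The part of muscle content in the values of this list was not tested. Mrps7 (0.28 ± 0.07, adjusted p = 0.172) and Mrpl28 (0.19 ± 0.05, adjusted p = 0.172) had the smallest p in vivo, and Mrpl2 (0.33 ± 0.09, adjusted p = 0.363) had it ex vivo. The sign was thus positive for most mitochondrial and negative for most cytosolic ribosomal proteins in vivo, a difference between the lists that was not tested.

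Elongation and initiation factors, measured for 34 of 41, were lower for 23 in vivo and for 20 ex vivo, with medians of -0.02 in each. The smallest p in vivo was that of Eef1a2, the elongation factor form of muscle and neurons, at 1.07 ± 0.39 (adjusted p = 0.193; 0.18 with muscle content as a covariate), and ex vivo that of Eif6, which keeps the subunits apart, at 0.20 ± 0.07 (adjusted p = 0.394). Ribosome biogenesis factors, measured for 49 of 54, were higher for 22 in vivo and 33 ex vivo, with medians of -0.004 and 0.09, and the in vivo median turned to 0.01 under quantile normalization and when centred on bright probes. Nop58, a core protein of box C/D particles, differed by -0.17 ± 0.05 in vivo (adjusted p = 0.172), and Ubtf, a factor of RNA polymerase I, by 0.37 ± 0.09 ex vivo (adjusted p = 0.363). Genes of mTORC1 and TOP mRNA control, 25 of 31 measured, were higher for 13 in vivo and 14 ex vivo. Eif4ebp1, the translational repressor that mTORC1 inactivates, differed by 0.34 ± 0.07 in vivo (adjusted p = 0.172) and by -0.23 ± 0.11 ex vivo (adjusted p = 0.496). Sesn2, an inhibitor of mTORC1, differed by 0.29 ± 0.09 in vivo (adjusted p = 0.172).

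The lists were also read between the settings. In ex vivo shortened tissue 43 of 49 biogenesis factors passed as higher and 4 as lower, with a median of 0.70, where 33.5% of all probes passed as higher. The cell type marker lists given above had medians from -2.74 (macrophage) to 0.54 (endothelial) in the same comparison. The counts of biogenesis factors were 44 and 4 with quantile normalization and 28 and 4 on the deposited scale, where their median was 0.32. For the members the median was 0.11, -0.002 and -0.28 on the same scales. Mitochondrial ribosomal proteins passed as higher for 12 and as lower for 25 of 74, with a median of -0.11, where 33.9% of all probes passed as lower. With quantile normalization 16 were higher and 22 lower, with a median of -0.04, and as deposited 5 were higher and 49 lower, with a median of -0.50.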

How the data were processed

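The deposited values were log2 signals per probe, made by the authors with RMA and the affy package, per the submitters' processing notes; versions are not given in the sources used here. RMA corrects background, normalizes quantiles and summarises probes. Probes were named through the supplied annotation: 20380 carried 1 symbol, 691 several and 1555 none, and 64 control probes were left out. The number of arrays limits the precision.

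Each comparison was fitted on all 22626 probes with limma 3.58.1 in R 4.3.3 (lmFit, eBayes with a mean-variance trend, Benjamini-Hochberg adjustment, threshold 0.05). The stretch comparisons had the animal as a block, from the series design and the replicate numbers in the titles. Deviations from group means correlated between same-numbered samples with r of 0.385 to 0.867 in vivo (in 5 of 7 animals the best partner was its own) and 0.109 to 0.284 ex vivo (in 2 of 4). Leaving out the block cannot change the differences or their median, because every animal gave both pieces. The count of members called was 0 with and without the block in both settings. In vivo the adjusted p (limma) of Rpl39l and Rpl3l was 0.172 with the block and 0.981 without it.

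On simulated data a log2 change of 1 was recovered for 97 of 100 probes in vivo, 87 ex vivo, 90 for the difference of effects and 76 between settings. Each probe was simulated on its own, without differences shared by many probes, such as muscle content. A change of 1 is also far larger than the members' in vivo median of -0.05, so these rates do not cover changes of that size. Values named are the 5 members of smallest p per direction and comparison, the 3 brightest and 3 dimmest, members with a known role, and the 3 list genes of smallest p per stretch comparison. Members listed by pair counts or by agreement of scalings were named after their values were seen. Members and lists were chosen with earlier results of these data known. Alternatives covered normalization, centring, dim probes, the eBayes options, the probe of a gene, paralogs, the block, muscle content, RNA quality and each animal left out. The use of all probes, of shared probes and of bright members only was added after seeing the data.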

Additional observations from a re-analysis of the deposited data

Results flagged for a closer look

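Dixon's test for a sample far from its group was run on 51 groups of 4 to 7 values of the members described, and 3 stood out, where chance marks about 1 group in 20. The Rpl39l signal in ex vivo shortened tissue was 8.73 in animal 2, with the nearest sample at 9.50. The Rps18 difference of stretched minus shortened tissue was -0.22 in in vivo animal 3, with the nearest animal at -0.09. The Rpl7l1 difference was 0.52 in ex vivo animal 3, with the nearest animal at 0.19. No member moved one way in every in vivo pair and the other way in every ex vivo pair, and 0 stretch effects were called different between the settings.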

How the results depend on the processing

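Of 180 summary values recomputed under alternatives, 170 kept their call or stayed within the spread between animals. Some of these could not differ: medians do not depend on the eBayes options, and between settings they do not depend on the centrings. Leaving out 1 animal gave 0 to 1 members called for the difference of effects. Between settings the median of the members was -0.00167 with quantile normalization, 0.188 with probes of a mean of at least 6, 0.192 with the mean of all probes, 0.187 over all single-symbol probes, 0.178 over shared probes and -0.277 as deposited. There 72 of 100 single-symbol probes and 71 of 102 shared probes passed, counts over more probes than the 48. Between settings the signs of most members turned between scalings, as for Rpl10a at 0.177 on the relative scale and -0.206 as deposited. The cases that follow cover only the differences that were followed singly, and signs of other members turned as well. In vivo, Rpl27a was -0.0889 within animals 4 to 7. Rps4l was -0.00501 with muscle content as a covariate, -0.0036 within animals 4 to 7 and -0.0250 to 0.0532 with 1 animal left out. Rpl7l1 was 0.00531 centred on bright probes, 0.0951 with the muscle covariate and 0.0196 without the pairs that differed most in muscle. It was 0.0161 within animals 1 to 3 and -0.0442 to 0.0314 with 1 animal left out. For the difference of effects, Rpl3l was -0.0100 and -0.00586 under the centrings and -0.329 with the muscle covariate. It was -0.604 without the pairs that differed most in muscle and -0.615 to 0.534 with 1 animal left out. Between settings, Rps24 was -0.0297, Rps7 -0.113, Rplp0 -0.115 and Rplp2 -0.0575 as deposited, Rpl41 1.08, Rps28 0.038 and Rpsa 0.0891 with the mean of all probes, and Rps4l 0.0761 in stretched tissue. The cause of these turns was not tested. Without the replicate block 0 members were called in the stretch comparisons, as with it, while the medians could not change because every animal gave both pieces.

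The median SE of a member was 0.035 in vivo and 0.059 ex vivo, and 0 called members does not show that stretch left them unchanged. The 30 genes known only from shared probes are not described singly.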
